A study of Mus musculus with 6 samples.

Results

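The bone morphogenetic protein (BMP) and Alk1 signalling genes described here are the BMP ligands Bmp2, Bmp4 and Bmp6, the endothelial receptors Acvrl1 (which encodes Alk1), Eng and Bmpr2, the target genes Id1, Id3 and Smad6, and the pseudoreceptor gene Bambi. The members are all probe sets that the platform annotation gives to one of these 10 symbols alone, which came to 14 of 45037 probe sets tested, and to 10 of 18193 genes. A probe set is a group of short array probes read together as 1 value. They were measured in cerebellar endothelial cells purified from mice at postnatal day 16 on beads coated with an antibody to PECAM, which endothelial cells carry on their surface. The Fz4-/- mice lack Frizzled4, the receptor encoded by Fzd4 that passes Norrin and Wnt signals to endothelial cells, and they were compared with wild-type mice. All groups came from a C57Bl6/129 mixed background and were of mixed gender, per the labels. Each genotype had 3 preparations on 1 Affymetrix 3' expression array each, 6 arrays in all. The series asks what a lasting loss of Frizzled4 signalling does to the endothelial transcriptome. The labels do not say which part of Fzd4 is deleted, nor whether a preparation was 1 animal or a pool. The p-values judge each difference against the spread between these preparations, which may not be the spread between animals.

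BMP ligands are secreted dimers that bring type I and type II serine/threonine kinase receptors together on the cell surface. The type I receptor then phosphorylates the receptor Smads 1, 5 and 9, which enter the nucleus with Smad4 and switch on targets such as the Id genes and the inhibitory Smads. In endothelial cells the type I receptor Alk1, its co-receptor endoglin and the type II receptor Bmpr2 are the best known arm, and in humans inherited mutations of ACVRL1 or ENG cause hereditary haemorrhagic telangiectasia, a disease of malformed vessels.

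Regulatory sequence next to 3 of the genes is shown so that the values below can be read beside the DNA that Smad proteins could meet. Of the 10 genes, 6 have a window in the RefSeq promoter table of build GRCm38.p6, which spans 250 bases before and 50 after an annotated start. The windows were searched on both strands for GTCTG (reverse CAGAC), a short Smad box present in 42.2% of all 32851 windows over their 250 upstream bases, and for the palindrome GTCTAGAC, present in 0.213% of the full windows. The Smad box was found for 3 of the 6 genes (Bmp6, Id3 and Eng), the palindrome for 1 (Smad6), and GGCGCC, a GC-rich Smad element searched in the full windows, for 1 (Bmpr2), where 11.9% of all windows hold it. The palindrome and GGCGCC overlap no Smad box in these windows. The Bmp6 stretch is at chr13:38345466-38345715 (+ strand) and holds 1 Smad box. The Id3 stretch is at chr4:136143572-136143821 (+ strand) and holds 2. The Smad6 stretch of 30 bases is at chr9:64022045-64022074 (- strand), where the palindrome covers the last 4 bases before the annotated start and the first 4 after it. Capitals mark the match in each, and a match describes letters only.
Bmp6: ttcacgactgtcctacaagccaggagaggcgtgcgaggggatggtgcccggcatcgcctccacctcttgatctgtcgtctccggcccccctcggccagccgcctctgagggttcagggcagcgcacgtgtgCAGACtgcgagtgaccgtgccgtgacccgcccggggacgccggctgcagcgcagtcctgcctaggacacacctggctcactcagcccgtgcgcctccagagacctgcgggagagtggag
Id3: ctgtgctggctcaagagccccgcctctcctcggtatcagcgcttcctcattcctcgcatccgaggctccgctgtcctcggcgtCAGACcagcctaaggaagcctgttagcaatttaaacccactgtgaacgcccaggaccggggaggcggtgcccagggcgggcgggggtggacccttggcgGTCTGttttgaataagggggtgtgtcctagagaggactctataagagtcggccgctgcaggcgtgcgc
Smad6: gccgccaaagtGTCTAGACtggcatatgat

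All expression values are log2 values from RMA, the authors' array summary, in which 1 unit is a doubling. Differences are Fz4-/- minus wild type. SE is limma's moderated standard error, and adjusted p is limma's p after Benjamini-Hochberg adjustment over all 45037 probe sets, called at 0.05. Array medians lay between 5.52 and 5.58 and lower quartiles between 3.46 and 3.64. Fzd4, the targeted gene, read 3.04, 4.03 and 3.996 on the Fz4-/- arrays and 10.80, 10.20 and 10.88 on the wild-type arrays in its brightest probe set (adjusted p = 0.00965). All 10 of the endothelial markers checked lay above the median level, among them Cdh5, the endothelial cadherin, at 11.62 in Fz4-/- cells and 11.18 in wild-type cells. The number of arrays limits the precision of every difference below.

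No BMP or Alk1 gene passed the threshold. Of the 10 genes 0 were called by limma, where 0.0220% of all genes tested were called, and at an unadjusted p under 0.05 there were 2 of 10 (Bmp6 and Acvrl1), where 4.60% of all genes were. The 3 Fz4-/- arrays all lay above the 3 wild-type arrays for 3 of 10 genes (Bmp6, Acvrl1 and Bmp2), where 4.59% of all genes did so, and all below for 0 of 10, where 4.95% did. The difference was above 0 for 8 of 10 genes, against 51.3% of all genes and 60.9% of genes at or above the median level, where all 10 members lie. The median difference over the 10 genes was 0.19, against 0.054 over genes at or above the median level and 0.008 over all genes.

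**Figure D1:**
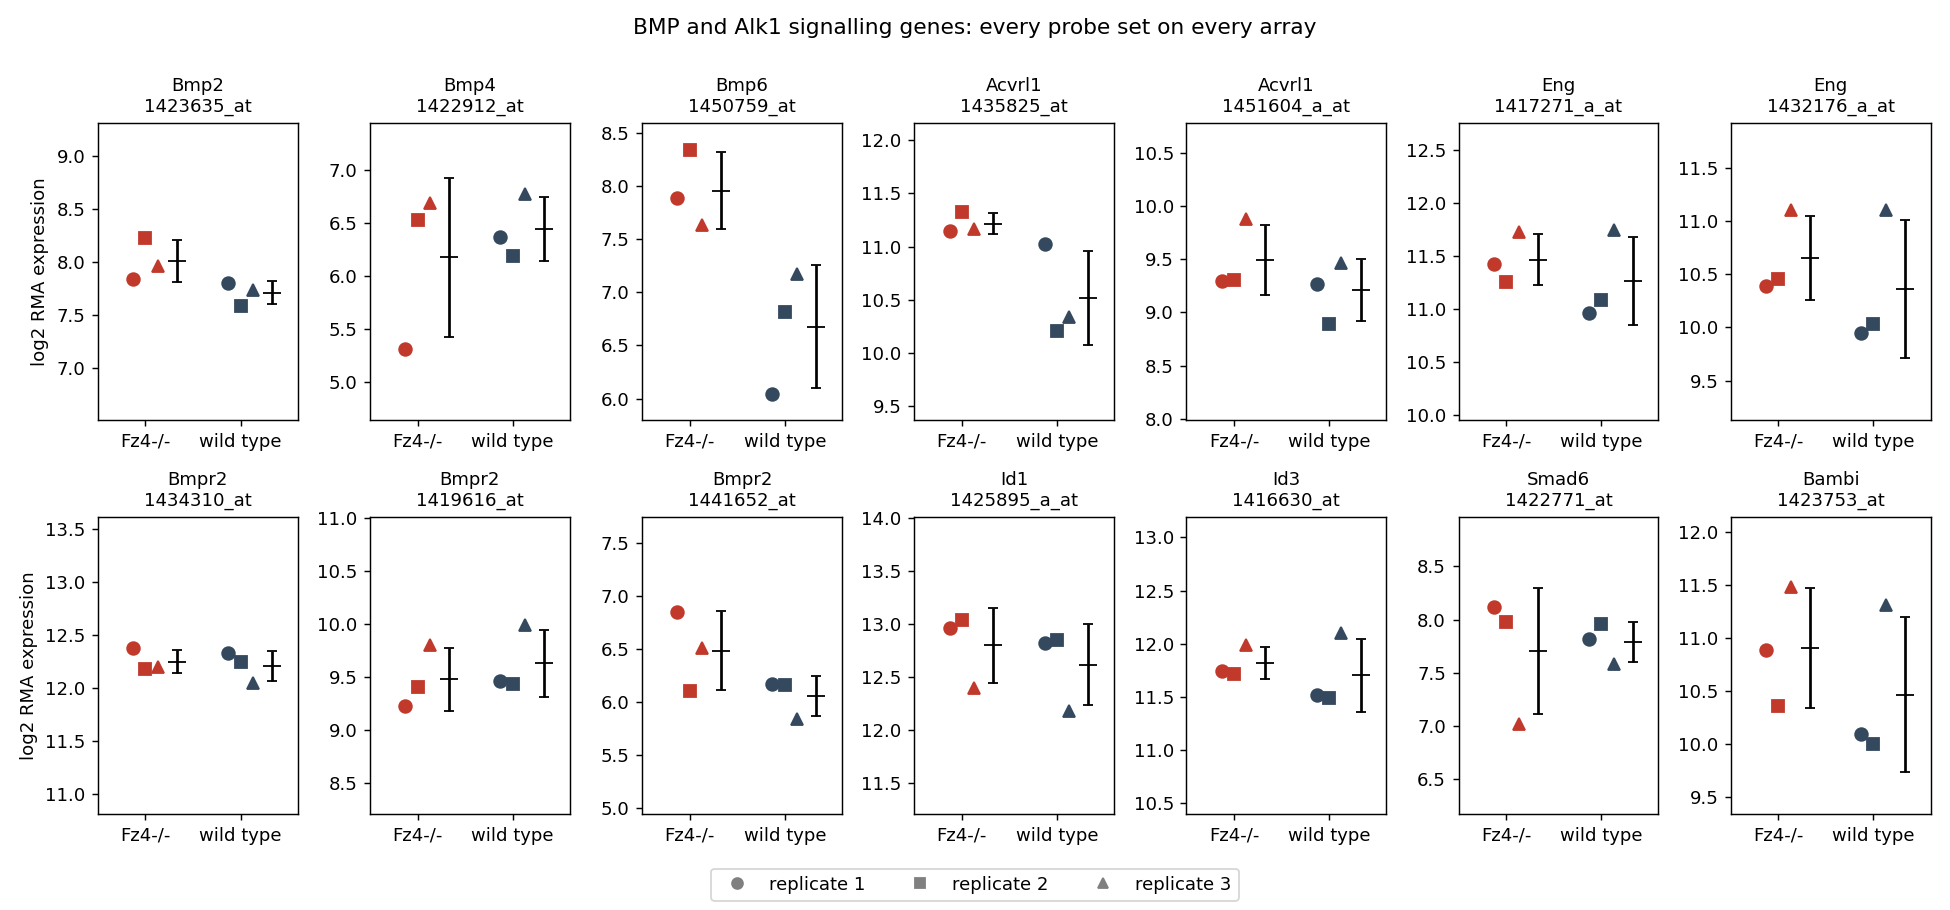
Log2 RMA expression (vertical axes, each spanning the same number of log2 units) of the 14 probe sets on each array, with Fz4-/- on the left and wild type on the right of each panel; marker shapes give the replicate number and the black bars the mean ± SD of 3 arrays. Bmp6, Bmp2 and the first Acvrl1 probe set have no overlap between genotypes, while the arrays numbered 3 are lowest for Id1 and highest for Bambi in both genotypes.

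Among the ligands, Bmp6 had the largest difference of all 10 genes. Bmp6, a ligand made by endothelial cells of several organs and known in the liver for its control of iron balance, read 7.89, 8.35 and 7.63 on Fz4-/- replicates 1 to 3 and 6.05, 6.81 and 7.17 on wild-type replicates 1 to 3. Each Fz4-/- array lay above each wild-type array, and the closest pair was the arrays numbered 3. Means were 7.96 ± 0.36 in Fz4-/- cells and 6.68 ± 0.58 in wild-type cells (SD, n = 3 each). The difference was 1.28 (SE 0.34, 95% interval 0.47 to 2.08), a ratio of 2.42, with adjusted p = 0.885 by limma and an unadjusted p of 0.00727. By replicate number it was 1.84, 1.53 and 0.46. It was 0.96 without wild-type replicate 1 and 1.69 without both arrays numbered 3, and it passed in neither setting.

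Bmp2, which opens the same Smad branch and is a known product of endothelial cells, showed a small separation. It read 7.84, 8.23 and 7.96 in Fz4-/- cells and 7.80, 7.59 and 7.74 in wild-type cells. The groups did not overlap, but the lowest Fz4-/- array and the highest wild-type array, both numbered 1, differed by only 0.04. The difference was 0.30 (SE 0.18, 95% interval -0.14 to 0.74, limma adjusted p = 1.00), and 0.19 without Fz4-/- replicate 2.

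Bmp4, a close relative of Bmp2, read 5.31, 6.52 and 6.69 in Fz4-/- cells and 6.36, 6.19 and 6.77 in wild-type cells. The groups overlapped, and Fz4-/- replicate 1 was far below the other 5 arrays. The difference was -0.27 (SE 0.39, 95% interval -1.19 to 0.66, limma adjusted p = 1.00) and became 0.17 without Fz4-/- replicate 1. That array also held the least signal of other cell types. Its mean over 8 fibroblast and meningeal markers lay -2.88 from the wild-type mean, and over 8 pericyte and smooth muscle markers -1.18, against 0.47 and 0.08 on Fz4-/- replicate 2. All 8 of each list were at or above the median level over the 6 arrays. The linear signal summed over the fibroblast list ran from 1939 to 14294 in Fz4-/- cells and from 10465 to 14433 in wild-type cells. Over the pericyte and smooth muscle list it ran from 11224 to 23527 in Fz4-/- cells and from 20266 to 23166 in wild-type cells. No marker was listed at 0, but neither was the targeted Fzd4 on the Fz4-/- arrays, so this does not show detection. Fz4-/- replicate 1 also lay below the wild-type mean for the microglial (-2.998), choroid plexus (-1.94) and astrocyte (-1.63) lists. The granule neuron and oligodendrocyte lists lay below it too, by less. The low signal was thus not particular to the fibroblast and pericyte lists. Whether any of these cell types set the Bmp4 level was not tested, and in bulk RNA fewer cells of a type and less RNA per cell cannot be told apart.

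Of the receptors, Acvrl1 had the largest difference. Alk1 binds BMP9 and BMP10 and is found mainly on endothelial cells. In its brighter probe set, 1435825_at, Acvrl1 read 11.15, 11.33 and 11.16 in Fz4-/- cells and 11.02, 10.20 and 10.33 in wild-type cells. The groups did not overlap, and wild-type replicate 1 was close to the Fz4-/- arrays while the other 2 wild-type arrays were lower. Means were 11.21 ± 0.10 in Fz4-/- cells and 10.52 ± 0.44 in wild-type cells (SD, n = 3 each). The difference was 0.70 (SE 0.25, 95% interval 0.10 to 1.30), a ratio of 1.62, with limma adjusted p = 1.00 and an unadjusted p of 0.0291. With 1 array left out the difference ran from 0.54 to 0.95. The unadjusted limma p was then under 0.05 only without wild-type replicate 1 (0.00400), and reached 0.0991 without wild-type replicate 2. The dimmer probe set, 1451604_a_at, read 9.30, 9.31 and 9.88 in Fz4-/- cells and 9.27, 8.89 and 9.47 in wild-type cells. Here the groups overlapped, and the difference was 0.28 (SE 0.25). The probe sets share the direction and differ in size.

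Eng, which encodes endoglin, the co-receptor that presents ligand to Alk1, had a difference of 0.20 (SE 0.26, 95% interval -0.42 to 0.82, limma adjusted p = 1.00). It read 11.42, 11.26 and 11.72 in Fz4-/- cells and 10.97, 11.09 and 11.74 in wild-type cells. The arrays numbered 3 were the highest of each genotype and nearly equal, while numbers 1 and 2 were higher in Fz4-/- cells by 0.45 and 0.17. The difference was 0.05 without wild-type replicate 1, 0.07 without Fz4-/- replicate 3 and 0.44 without wild-type replicate 3. In the second Eng probe set, 1432176_a_at, the arrays numbered 3 were also the highest of each genotype and nearly equal. Its difference was 0.29 (SE 0.37), with number-by-number differences of 0.45, 0.42 and -0.001.

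Bmpr2, the type II receptor, had the narrowest interval of the 10 genes. Its brightest probe set, 1434310_at, read 12.37, 12.18 and 12.20 in Fz4-/- cells and 12.33, 12.25 and 12.05 in wild-type cells, with a difference of 0.04 (SE 0.17, 95% interval -0.37 to 0.45). The interval spans ratios of 0.773 to 1.37. The difference turned to -0.04 without wild-type replicate 3 and -0.02 without Fz4-/- replicate 1. The other Bmpr2 probe sets disagreed in sign, at -0.15 (SE 0.25) for 1419616_at and 0.42 (SE 0.24) for 1441652_at, and the groups overlapped in all 3. None passed in limma (adjusted p = 1.00 for each).

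**Figure D2:**
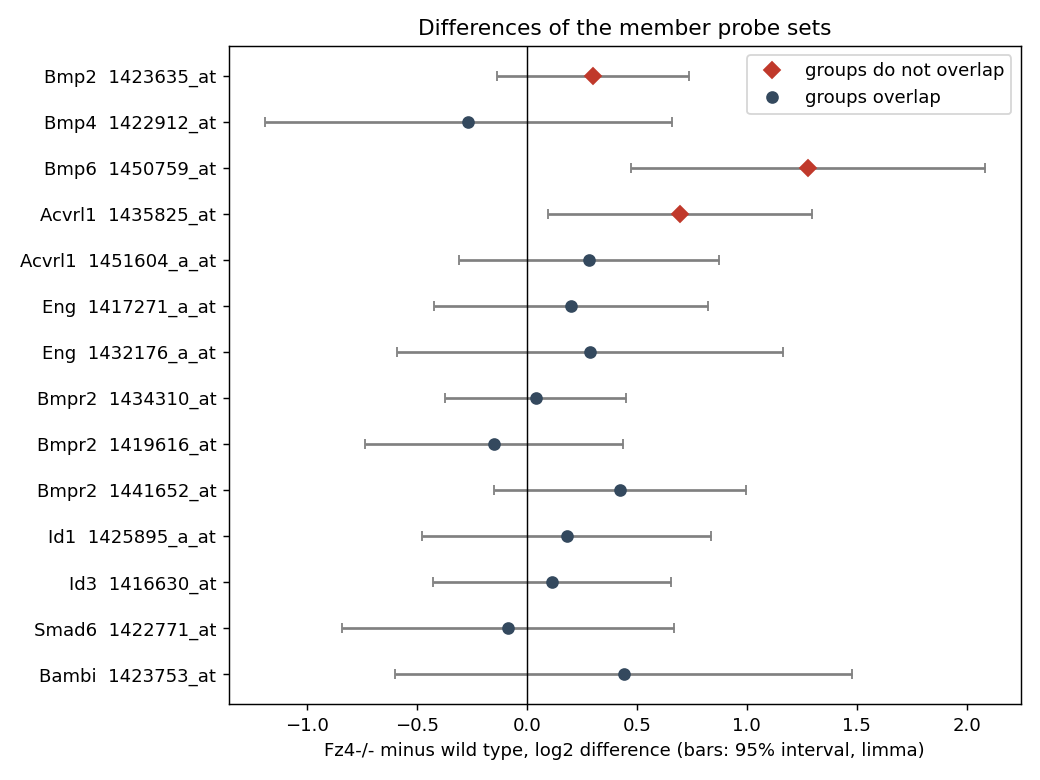
Log2 difference (horizontal axis), Fz4-/- minus wild type, of each of the 14 probe sets, with 95% intervals from limma; red diamonds are probe sets whose genotypes do not overlap. Intervals of Bmp6 and of Acvrl1 1435825_at lie above 0 before adjustment for multiple tests, and the other 12 include 0.

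The direct targets showed small differences with intervals around 0. Id1 encodes an inhibitor of basic helix-loop-helix transcription factors and is the textbook readout of BMP signalling in endothelium. It read 12.96, 13.04 and 12.40 in Fz4-/- cells and 12.83, 12.85 and 12.18 in wild-type cells. The array numbered 3 was the lowest of each genotype, by 0.61 in Fz4-/- cells and 0.66 in wild-type cells relative to the mean of the other 2. Within numbers, Id1 was higher in Fz4-/- cells by 0.14, 0.19 and 0.22. The difference was 0.18 (SE 0.28, 95% interval -0.48 to 0.84, limma adjusted p = 1.00), and it was 0.38 without Fz4-/- replicate 3 and -0.04 without wild-type replicate 3.

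Id3, a second inhibitor of the same family, read 11.75, 11.71 and 11.99 in Fz4-/- cells and 11.51, 11.49 and 12.10 in wild-type cells. The groups overlapped through wild-type replicate 3, the highest array. The difference was 0.12 (SE 0.23, 95% interval -0.43 to 0.66), and leaving out 1 array moved it to between 0.009 (wild-type replicate 2 left out) and 0.32 (wild-type replicate 3 left out). The arrays numbered 3 were the highest for Id3 and the lowest for Id1, so these related targets stood on opposite sides on that pair of arrays.

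Smad6, an inhibitory Smad that is induced by BMP signals and acts back on the type I receptors, read 8.11, 7.97 and 7.02 in Fz4-/- cells and 7.82, 7.96 and 7.58 in wild-type cells. Fz4-/- replicate 3 was the lowest array, and the other 5 lay between 7.58 and 8.11. The difference was -0.08 (SE 0.32, 95% interval -0.84 to 0.67) and became 0.26 without Fz4-/- replicate 3.

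Bambi, a receptor-like protein without a kinase domain that dampens TGF-beta and BMP signals, had the largest SE of the 10 genes. It read 10.88, 10.36 and 11.48 in Fz4-/- cells and 10.09, 9.998 and 11.31 in wild-type cells. The array numbered 3 was the highest of each genotype. Within numbers Bambi was higher in Fz4-/- cells by 0.79, 0.36 and 0.17. Means were 10.91 ± 0.56 in Fz4-/- cells and 10.47 ± 0.73 in wild-type cells (SD, n = 3 each), and the difference was 0.44 (SE 0.44, 95% interval -0.60 to 1.48, limma adjusted p = 1.00). It was 0.86 without wild-type replicate 3 and 0.15 without Fz4-/- replicate 3.

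Several of these genes differed with the replicate number in both genotypes, at a share close to that of all genes. The array numbered 3 was the highest in both genotypes for 4 of 10 genes (Bambi, Eng, Id3 and Bmp4) and the lowest in both for 2 (Id1 and Smad6), so 6 of 10 moved with the number, where 51.1% of all genes did. The labels say nothing of what the number stands for. With the number as a block in limma, Bmp6 had a difference of 1.28 (SE 0.31, adjusted p = 0.494), Acvrl1 0.70 (SE 0.24, adjusted p = 0.560) and Bambi 0.44 (SE 0.18, adjusted p = 0.587), and 0 of 10 genes passed. Before adjustment, the limma p rose with the block for Bmp6 (0.00727 to 0.0101), Acvrl1 (0.0291 to 0.0350) and Bmp2 (0.145 to 0.155). It fell for the other members, as for Bambi (0.347 to 0.0623). In the block fit 8.89% of all genes lay below 0.05 before adjustment, compared with 4.60% in the main fit. The lower adjusted p is therefore not stronger evidence for Bmp6 or Acvrl1.

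**Figure D3:**
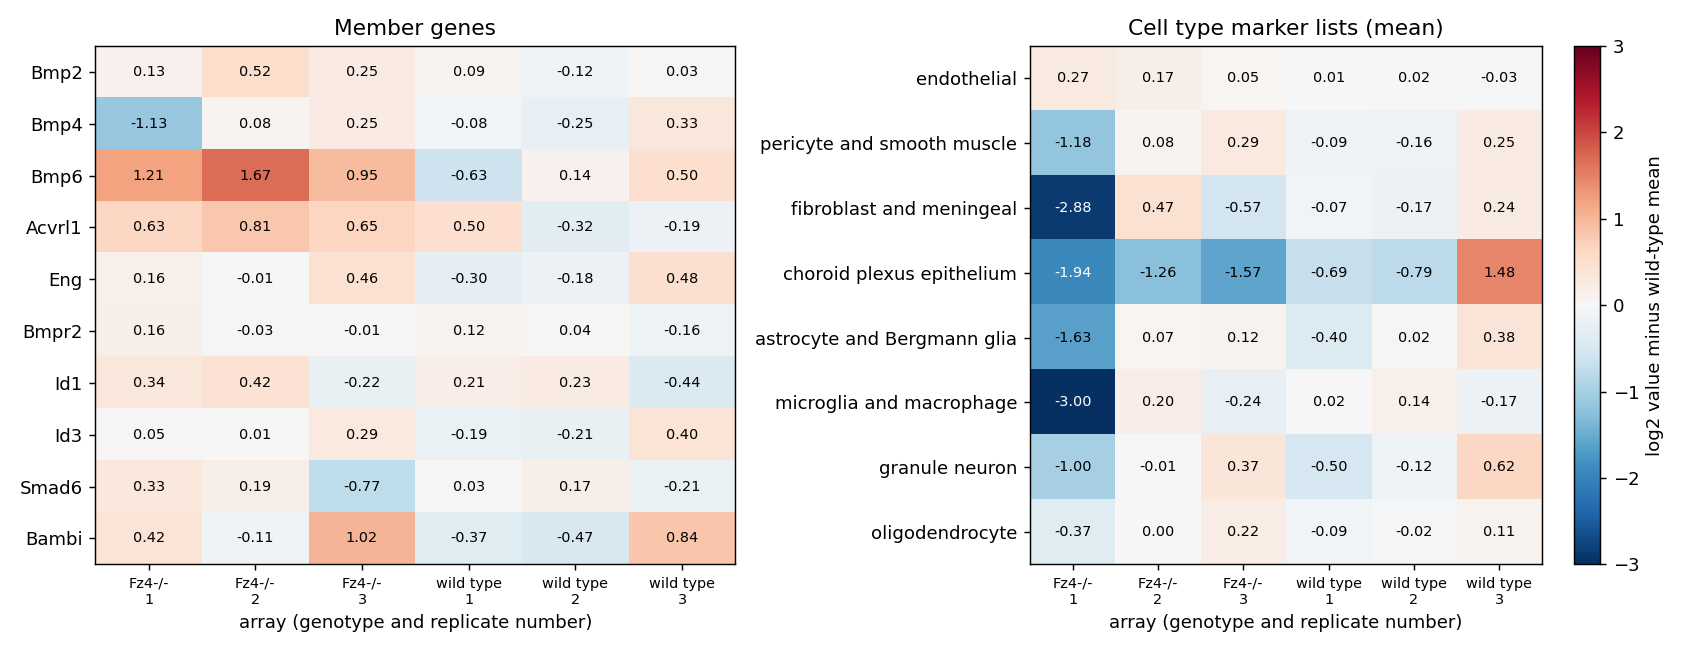
Log2 value minus the wild-type mean (colour and printed number) on each of the 6 arrays, Fz4-/- left of wild type, for the 10 genes (left panel, brightest probe set) and for the mean of 8 cell type marker lists (right panel). Bmp6 is above the wild-type mean on every Fz4-/- array, at 1.21, 1.67 and 0.95, Bmp4 is at -1.13 on Fz4-/- replicate 1, and the choroid plexus list is highest on wild-type replicate 3, at 1.48.

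The endothelial markers differed among themselves. Of 10 markers, 7 were above 0 and 0 were called, where 60.9% of genes at or above the median level were above 0, and their median difference was 0.05, against 0.054 for such genes. Tie1, Cdh5, Pecam1 and Emcn had differences of 0.49, 0.44, 0.43 and 0.41, and the other 6 lay between -0.13 and 0.08. On Fz4-/- replicates 1 to 3 the mean of the list exceeded that of wild type by 0.27, 0.17 and 0.05, with summed linear signals of 38948 to 42774 in Fz4-/- cells and 36697 to 37525 in wild-type cells. Their part in the receptor and Bmp6 differences was not tested. On Fz4-/- replicate 1, where the lists of mural, fibroblast, glial and microglial cells were lowest, Bmp6 and Acvrl1 read 7.89 and 11.15, between the other Fz4-/- arrays for Bmp6 and within 0.02 of Fz4-/- replicate 3 for Acvrl1. Without that array the differences were 1.31 for Bmp6 (limma unadjusted p = 0.0193) and 0.73 for Acvrl1 (limma unadjusted p = 0.0551). The part of these other cell types in either difference was not tested.

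The wider BMP pathway, a list of 47 other genes of which 43 were measured, also gave 0 calls in limma. At an unadjusted p under 0.05 there were 5 of 43, where 4.60% of all genes were. The median difference was -0.04, and 17 genes were above 0 and 26 below, where 51.3% of all genes were above 0. Groups did not overlap for 3 of 43 genes with Fz4-/- cells higher and 4 of 43 with Fz4-/- cells lower, where 4.59% and 4.95% of all genes did so. Of these 43 genes, 26 lay at or above the median level. Leaving out 1 array turned the sign of 25 of the 43, and the number above 0 then ran from 10 without Fz4-/- replicate 2 to 22 without Fz4-/- replicate 3.

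**Figure D4:**
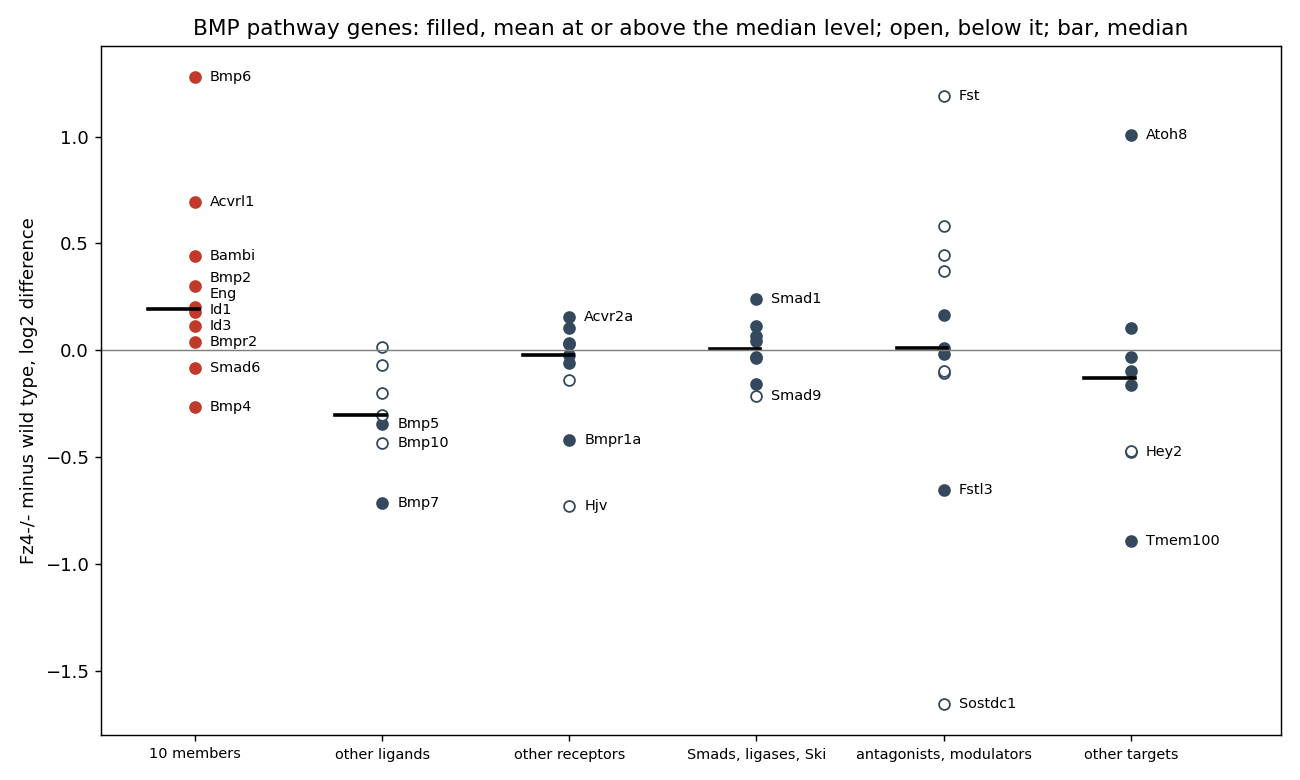
Log2 difference, Fz4-/- minus wild type (vertical axis), of the 10 genes (red) and the 43 other BMP pathway genes (blue) by role; filled points lie at or above the median level over the 6 arrays, open points below it, and bars mark medians. Medians run from -0.30 for the other ligands to 0.19 for the 10 genes, and among the other genes Atoh8 and Fst lie above 1 and Sostdc1 below -1.

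Other ligands numbered 7 measured, with 1 above 0, 6 below, a median of -0.30 and 0 called, and 2 of the 7 lay at or above the median level. Without Fz4-/- replicate 1 the count below 0 was 3 of 7 and the median 0.006. Bmp7 read 4.05, 7.03 and 5.38 in Fz4-/- cells and 5.75, 6.34 and 6.51 in wild-type cells, a difference of -0.71 (SE 0.70). Bmp5 read 7.22, 9.46 and 7.82 in Fz4-/- cells and 8.81, 8.80 and 7.93 in wild-type cells, a difference of -0.34 (SE 0.58). For these relatives of Bmp6, as for Bmp4, Fz4-/- replicate 1 was the lowest array, and without it the differences were 0.01 and 0.13. Bmp8b did not overlap between genotypes, at 3.28, 3.48 and 3.26 in Fz4-/- cells and 3.55, 3.73 and 3.66 in wild-type cells, all near the arrays' lower quartiles. The circulating Alk1 ligands are made mainly outside the brain, BMP10 in the heart and BMP9 in the liver. Bmp10 averaged 2.05 in Fz4-/- cells and 2.48 in wild-type cells, below the lower quartiles. Gdf2, which encodes BMP9 and was named after its values were seen, averaged 3.85 in Fz4-/- cells and 3.83 in wild-type cells, just above them.

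Other receptors and co-receptors numbered 9 measured, with 4 above 0, 5 below, a median of -0.02 and 0 called. Acvr2a, a type II receptor for activins and BMPs, read 11.15, 11.04 and 10.93 in Fz4-/- cells and 10.93, 10.91 and 10.81 in wild-type cells, groups that meet within 0.01 (difference 0.16, SE 0.16). Bmpr1a, the type I receptor for Bmp2 and Bmp4, read 7.42, 9.62 and 8.75 in Fz4-/- cells and 9.46, 9.10 and 8.50 in wild-type cells (difference -0.42, SE 0.56, and 0.17 without Fz4-/- replicate 1). Acvr2b had a difference of 0.10 (SE 0.43), which turned to -0.19 with wild-type replicate 1 left out and was 0.49 with wild-type replicate 3 left out. Hjv, which encodes the BMP co-receptor hemojuvelin, averaged 3.58 in Fz4-/- cells and 4.31 in wild-type cells (difference -0.73, SE 0.28), a low level, and its groups did not overlap.

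Smads, the ligases Smurf1 and Smurf2 that degrade them and the Smad co-repressor Ski ranged from -0.21 to 0.24 over 8 measured genes, with a median of 0.007 and 0 called. Smad1, a receptor Smad of the BMP branch, had a difference of 0.24 (SE 0.34) in its brightest probe set, which was -0.08 without wild-type replicate 3 and 0.47 without Fz4-/- replicate 3. The difference was 0.56 (SE 0.22) in its dimmest, 1416081_at, where it read 7.61, 7.44 and 7.92 in Fz4-/- cells and 6.99, 6.92 and 7.37 in wild-type cells without overlap. Smad5 had a difference of 0.11 (SE 0.22, and -0.04 without Fz4-/- replicate 1) and the ubiquitin ligase Smurf2 -0.16 (SE 0.18). Smad9 averaged 3.57 in Fz4-/- cells and 3.79 in wild-type cells, near the lower quartiles (difference -0.21, SE 0.24).

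Antagonists and modulators held the widest differences, from -1.65 to 1.19 over 11 measured genes, with a median of 0.01 and 0 called. Fst encodes follistatin, which binds activins and some BMPs. In its brighter probe set Fst read 6.02, 6.63 and 5.55 in Fz4-/- cells and 5.22, 5.12 and 4.29 in wild-type cells, without overlap (difference 1.19, SE 0.37, limma adjusted p = 0.988). The mean of that probe set over the 6 arrays lay below the median level. The other Fst probe set, 1421365_at, differed in sign, at -0.20 (SE 0.45). Fstl3, a follistatin relative, read 6.20, 5.59 and 5.98 in Fz4-/- cells and 6.68, 6.49 and 6.56 in wild-type cells, also without overlap and in the other direction (difference -0.65, SE 0.21, limma adjusted p = 1.00). Sostdc1, an antagonist of BMP and Wnt signals, read 4.51, 5.04 and 4.07 in Fz4-/- cells and 5.54, 5.16 and 7.88 in wild-type cells. Its groups did not overlap, and its mean over the 6 arrays lay below the median level. Its difference was -1.65 (SE 0.70), and -0.81 without wild-type replicate 3. Sostdc1 is also 1 of the 8 choroid plexus markers, all 8 of which were lower in Fz4-/- cells, with 4 at or above the median level. Their summed linear signal ran from 1065 to 1951 in Fz4-/- cells and from 4186 to 13759 in wild-type cells. None was listed at 0, which does not show detection. The part of choroid plexus RNA in the Sostdc1 difference was not tested. Crim1 and Twsg1, which bind BMPs outside the cell, had differences of 0.16 (SE 0.17) and -0.02 (SE 0.22), the second of which was 0.12 without Fz4-/- replicate 3.

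Other targets went in both directions, with 2 of 8 above 0, a median of -0.13 and 0 called. Atoh8, a helix-loop-helix factor induced through Alk1 in endothelial cells, read 7.31, 7.09 and 7.87 in Fz4-/- cells and 6.003, 6.21 and 7.03 in wild-type cells, without overlap. The difference was 1.01 (SE 0.34, limma adjusted p = 1.00), and by number it was 1.30, 0.87 and 0.84. Tmem100, a membrane protein that depends on Alk1 signalling in mouse arteries, went the other way, at 6.38, 7.42 and 7.69 in Fz4-/- cells and 7.65, 8.22 and 8.29 in wild-type cells (difference -0.89, SE 0.38, limma adjusted p = 1.00). Its groups overlapped by 0.04, and the difference was -0.50 without Fz4-/- replicate 1. Hey2, a Notch and BMP target of arterial cells, had a difference of -0.48 (SE 0.34, and -0.24 without Fz4-/- replicate 1), and Msx2 one of -0.47 (SE 0.22) from a low level.

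The genes whose values followed Bmp6 most closely were Gda, Hoxd9 and Syde2. Likeness was the root mean square distance over the 6 arrays between the values of each gene minus its wild-type mean, among 10925 genes at or above the median level. The distances were 0.197 for Gda, 0.237 for Hoxd9 and 0.246 for Syde2. Because this distance takes in the difference between genotypes, genes picked by it have a difference near that of Bmp6. Theirs were 1.203, 1.38 and 1.05, and none passed in limma (adjusted p = 0.571, 0.742 and 0.818).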

How the data were processed

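The deposited table holds log2 values made with RMA, as the submitters' processing notes name it. RMA corrects background, normalizes arrays to one another and summarises each probe set, and it compresses differences near background. Neither its implementation nor its version is given in the sources used here. Of 45101 probe sets, 64 controls were left out. The platform annotation named the probe sets (34945 with 1 symbol, 932 with several and 9160 with none), and each gene is represented by its brightest probe set, taken by the mean over 6 arrays. Levels of different probe sets were compared only to rank those of a gene by brightness and to place them against the median level and lower quartiles. Sequencing depth does not apply to arrays.

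Genotypes were compared over all 45037 probe sets with limma 3.58.1 in R 4.3.3 (lmFit, eBayes, no covariate, two-sided) after a test on simulated data. With 3 arrays a group, exact permutation reaches 0.1 at best, and it was not run. Members, gene lists, the naming rule (every member, and in each pathway list the 3 largest differences at or above the median level, the largest below it and genes whose groups do not overlap) and alternatives were chosen with earlier results of these data known. Deviations from the group means correlated at 0.244, 0.303 and 0.574 for the same replicate numbers, all above the minimum of 0.1 for pairing by number. Unlike numbers reached 0.262, so pairs 1 and 2 are not well told apart, and the block was an alternative. Alternatives covered normalization, dim probe sets, the variance model, array weights, the replicate block, arrays left out and the choice of probe sets. Figures were drawn with matplotlib 3.10.9.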

Additional observations from a re-analysis of the deposited data

How the results depend on the processing

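No BMP or Alk1 gene and no other gene of the pathway list was called in limma under any alternative run. The counts were 0 genes each, also with each array left out and, for the 10 genes, at an adjusted p of 0.1. At an unadjusted p under 0.05 there were 1 or 2 of the 10 and 2 to 7 of the pathway list. The share of all genes under it ran from 3.06% to 8.89% over these settings. With the replicate block the counts were 0 of 10 and 0 of 43, and 0 of 18193 genes were called (1617 at an unadjusted p under 0.05), against 4 without it. Fzd4, the targeted gene, did not pass in limma with the block (adjusted p = 0.127) or without both arrays numbered 3 (0.249). It also did not pass without Fz4-/- replicate 2 (0.0933) or 3 (0.0720), or without wild-type replicate 1 (0.169) or 2 (0.0691). It passed without Fz4-/- replicate 1 (0.0213) or wild-type replicate 3 (0.0463). Where Fzd4 fails, 0 calls among the BMP genes says little. Bmp6, Acvrl1, Bmp2, Bambi, Eng and Id3 kept their sign in every alternative, Bmp6 between 0.96 and 1.69, Acvrl1 0.49 and 0.95, Bmp2 0.19 and 0.39, Bambi 0.15 and 0.86, Eng 0.05 and 0.44 and Id3 0.009 and 0.32. The sign of 9 of 148 gene differences turned. Many of the 148 could not turn. The variance model, the replicate block and the filter on dim probe sets left each member difference as in the main fit. So did the choice of probe sets for a gene with only 1. The share that turned therefore understates how far the signs depend on single arrays. Leaving out 1 array gave -0.52 to 0.17 for Bmp4, -0.038 to 0.099 for Bmpr2, -0.039 to 0.38 for Id1 and -0.29 to 0.26 for Smad6. Leaving out both arrays numbered 3 gave -0.012 for Bmpr2 and 0.15 for Smad6, and array weights gave -0.0082 for Bmpr2. The median over the 10 genes was 0.28 with array weights, 0.27 without both arrays numbered 3 and 0.16 to 0.32 with 1 array left out, the highest without wild-type replicate 3. The count over all genes was 12 with array weights, 11 with probe sets averaged per gene, 0 without both arrays numbered 3 (1498 at an unadjusted p under 0.05) and 0 to 2 with 1 array left out (556 to 1517). The cause of these shifts was not tested. Eng and Id1 drop out where probe sets shared between transcripts are left out. The widest 95% interval among the 10 genes, that of Bambi, spans -0.60 to 1.48.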
